A study of Mus musculus with 24 samples.

Results

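Mouse embryonic fibroblasts (MEFs) and P19 embryonal carcinoma cells, both untransduced, were compared as they stood before any factor was delivered to them. The comparison was defined by the array titles, as the 3 MEF control arrays of batch 1 against the 3 P19 control arrays of batch 1, so it used 6 of the 24 arrays of the series. The series as a whole measured RNA on Affymetrix mouse microarrays, 1 array per sample, in 8 groups of 3 arrays, with MyoD or NeuroD2 carried by lentivirus in the groups not compared here. The MEFs came from mice of genotype Myod-/-/Myf5-/- and grew in DMEM with serum (10% FBS). P19 cells, a line derived from a mouse teratocarcinoma, grew in MEMα, and their labels call them undifferentiated. An independent pair of untransduced groups, 3 MEF arrays of batch 2 and 3 P19 arrays of batch 3, was set beside the main pair. No group compared here received virus or MyoD or NeuroD2, and the sources used here give no harvest time for untransduced cells. Cell type, genotype and growth medium differ together between the groups and cannot be told apart. The labels do not say whether the 3 arrays of a group came from separate cultures or animals. Unless stated, every p-value rests on the spread within groups pooled over all 8 groups, those with MyoD or NeuroD2 included. That spread may be technical.

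P19 cells hold a circuit of transcription factors, Oct4 (Pou5f1), Sox2 and Nanog, that keeps embryonic cells able to form several lineages, and they can be steered toward neurons or muscle. Fibroblasts are connective tissue cells that make and remodel collagen matrix, respond to growth factors such as PDGF, and sense infection and injury through interferon and cytokine signalling. MyoD and NeuroD2 are basic helix-loop-helix (bHLH) factors of skeletal muscle and of neurons, and the untransduced cells are the starting states to which the study added them.

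The values are log2 signals as deposited, so 1 unit is a 2-fold difference in signal, and signals of different genes come from different probes, so their levels were not ranked against each other. Signals ran from 3.09 to 15.20, and the deposited table holds no detection calls, so weak genes sit near a floor and differences from them are understated. The MEF arrays correlated with each other at 0.998 or more over 18193 genes, and P19 controls 1 and 3 correlated at 0.998. P19 control 2 stood apart, with correlations of 0.922 and 0.916 with the other P19 controls and a slope of 0.764 on their mean. Its BioB spike-in control read 6.40, against 7.67 to 8.20 in the other 23, and whether it was processed together with them is not known. In that array the actin probe sets for the 3′ and 5′ ends differed by 0.41, against 0.15 to 0.39 in the other 23. A slope under 1 means that strong genes read lower and weak genes higher in that array than in its partners. Results were therefore computed with and without it.

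Of 18193 genes, 4511 (24.8%) were higher and 4887 (26.9%) were lower in MEF than in P19 controls at an adjusted p under 0.05 (limma with Benjamini-Hochberg adjustment). Without P19 control 2, 4381 (24.1%) were higher and 5704 (31.4%) lower, and 4070 higher and 4039 lower calls were shared by both fits, with 0 genes called in opposite directions. A stricter test, which asks for a difference above 2-fold (limma treat), called 1543 genes higher (8.48%) and 1068 lower (5.87%). The stricter split moved with the array that stands apart, to 1465 higher and 1629 lower without it, that is 47.3% of the calls higher, against 59.1% with all 6 arrays. With each array weighted by its spread the share was 47.1%, and fitting only the 6 arrays compared left 5075 genes called at 0.05 and 1628 by the stricter test. In all, 245 genes were more than 16-fold higher and 124 more than 16-fold lower. At the other end, the 95% interval of the difference lay within 2-fold in either direction for 10319 genes. The background shares are high, so the counts of each list below are to be read against these shares. A list's median is to be read against the median over all genes of -0.12.

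The 4 genes used to mark the cells matched the labels in every array. In RNA of whole cultures, fewer cells of a type and less RNA per cell cannot be told apart. Pou5f1, which encodes Oct4, read 4.51, 4.48 and 4.49 in MEFs, against 13.44, 12.98 and 13.50 in P19 cells. Lin28a, an RNA-binding protein that blocks let-7 microRNA processing, read 4.67, 4.003 and 4.25 in MEFs, against 12.91, 12.41 and 12.96 in P19 cells. The groups did not overlap for either gene, and the MEF values lay near the floor of the arrays. Over all genes, 4697 higher and 4699 lower genes had groups that did not overlap. Bgn, the matrix proteoglycan biglycan, read 14.51, 14.52 and 14.47 in MEFs, against 6.31, 4.83 and 6.21 in P19 cells, where control 2 was the lowest. Aspn, the related proteoglycan asporin, read 13.08, 12.998 and 12.93 in MEFs, against 4.13, 4.23 and 3.68 in P19 cells. These are among the largest differences of the comparison, at -8.82 ± 0.16, -8.45 ± 0.16, 8.72 ± 0.25 and 8.99 ± 0.13 (log2 difference ± SE from limma).

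**Figure D1:**
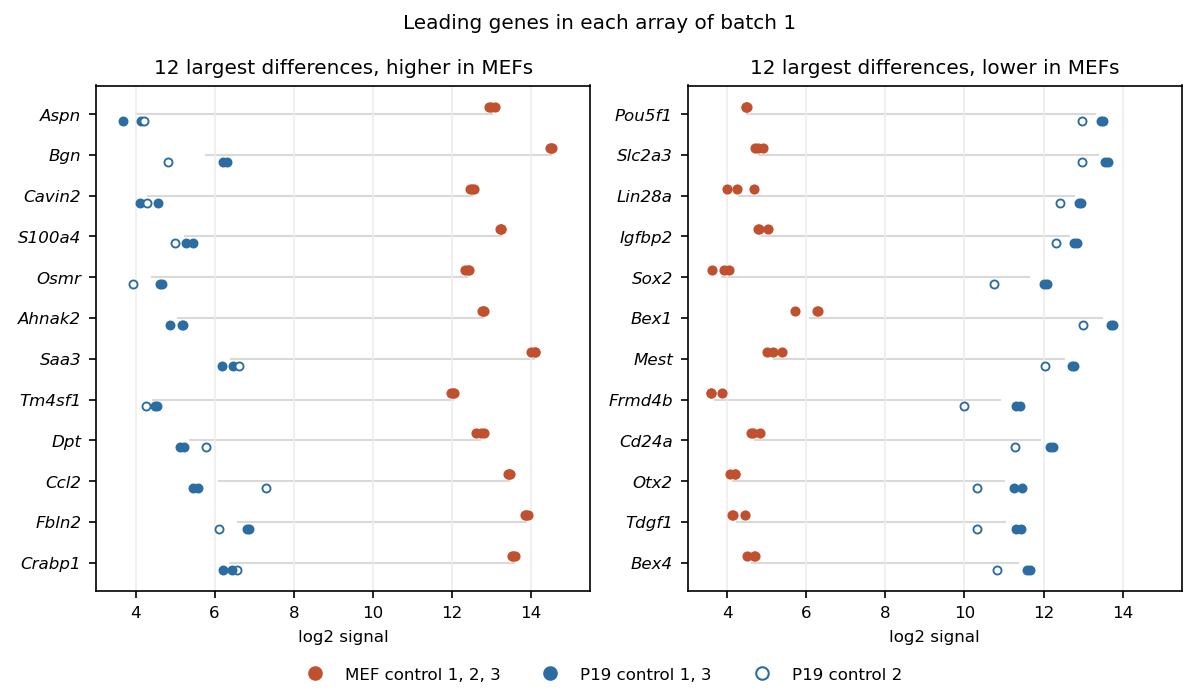
Log2 signal of the 12 genes with the largest differences in each direction, 1 point per array of batch 1 (MEF controls above each line, P19 controls below it, P19 control 2 open). The genes were picked among those whose groups do not overlap, which held for 4697 higher and 4699 lower genes over all genes tested. The open point lies below its partners for all 12 genes that are lower in MEFs.

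Among the 12 genes highest in MEFs over P19 cells, several act at the surface or outside the cell. Ahnak2, a large scaffold protein, read 12.80, 12.78 and 12.77 in MEFs, against 4.86, 5.199 and 5.18 in P19 cells. Tm4sf1, a tetraspanin-like membrane protein, read 12.06, 11.97 and 12.03 in MEFs, against 4.55, 4.26 and 4.48 in P19 cells. Cavin2, a protein of caveolae, differed by 8.19, S100a4, a calcium-binding protein of motile cells, by 7.99 and Osmr, the oncostatin M receptor, by 7.97. Ahnak2 and Tm4sf1 were high in every MEF array and near the floor in every P19 array. Dpt, dermatopontin, a small protein that binds decorin and collagen, read 12.82, 12.73 and 12.60 in MEFs, against 5.11, 5.78 and 5.22 in P19 cells. Fbln2, the matrix protein fibulin 2, read 13.84, 13.91 and 13.87 in MEFs, against 6.87, 6.11 and 6.81 in P19 cells. Crabp1, which binds retinoic acid in the cytoplasm, read 13.60, 13.55 and 13.52 in MEFs, against 6.21, 6.56 and 6.43 in P19 cells. For Ahnak2, Tm4sf1, Dpt, Fbln2 and Crabp1 the differences were 7.70, 7.59, 7.34, 7.28 and 7.16, which for Crabp1 is 143-fold higher signal in MEFs.

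Among the 12 genes furthest below P19 level in MEFs, Bex1 and Bex4 are small X-linked genes expressed in neural and embryonic cells. Bex1 read 5.72, 6.27 and 6.30 in MEFs, against 13.75, 13.004 and 13.71 in P19 cells. Bex4 read 4.50, 4.70 and 4.69 in MEFs, against 11.59, 10.82 and 11.66 in P19 cells. Cd24a, a glycosylated surface protein of progenitor cells, read 4.66, 4.60 and 4.82 in MEFs, against 12.25, 11.28 and 12.16 in P19 cells. Frmd4b, a scaffold protein with a FERM domain, read 3.61, 3.60 and 3.86 in MEFs, against 11.31, 10.00 and 11.40 in P19 cells. P19 control 2 was the lowest P19 array for all 4, and it still lay far above every MEF array. Sox2, a core factor of pluripotency, read 4.06, 3.93 and 3.63 in MEFs, against 12.09, 10.76 and 12.02 in P19 cells.

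Of 32 measured pluripotency genes, 26 were lower and 2 higher in MEFs, and 4 did not pass, with a median difference of -2.95. Nanog, the third factor of the core circuit, read 4.12, 4.23 and 4.18 in MEFs, against 9.24, 7.32 and 9.37 in P19 cells, a difference of -4.46 ± 0.37 with an adjusted p of 2.27e-09; it lies outside the naming rule and was chosen after its values were seen. Otx2, a homeobox factor of the epiblast and anterior brain, read 4.07, 4.20 and 4.20 in MEFs, against 11.26, 10.32 and 11.44 in P19 cells. Tdgf1, the Nodal co-receptor Cripto, read 4.46, 4.14 and 4.13 in MEFs, against 11.30, 10.31 and 11.43 in P19 cells. Sall4, a zinc finger partner of Oct4, was lower by 6.62 in MEFs on the log2 scale. The genes of this list were not all strong in P19 cells. Nr5a2, Tcl1 and Fgf4 had differences of -0.12, -0.49 and -0.50 that did not pass. Other, dimmer probe sets were called lower in MEFs for Fgf4, at -1.11 and -0.85, and for Nr5a2, at -0.53. Esrrb, Zfp42 and Tfcp2l1, factors of the naive state of embryonic stem cells, had P19 means of only 6.83, 4.60 and 5.86, chosen here after their values were seen. Klf4, which in embryonic stem cells acts beside Oct4 but is also an epithelial and fibroblast factor, went the other way, with 11.26, 11.37 and 11.38 in MEFs, against 6.23, 5.57 and 6.35 in P19 cells. Klf2, a related factor, was also higher in MEFs, by 1.58 on the log2 scale.

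Of 25 genes that regulate the germ layers, 16 were lower in MEFs, 1 was higher and 8 did not pass, and 16 were lower and 2 higher without P19 control 2. Sox3, a SoxB1 factor of neural progenitors, read 5.89, 5.98 and 5.89 in MEFs, against 10.22, 9.35 and 10.39 in P19 cells. Eomes, a T-box factor of the primitive streak, read 6.66, 6.30 and 7.01 in MEFs, against 9.97, 8.73 and 10.09 in P19 cells. Cxcr4, a chemokine receptor of early endoderm, and Gsc, the organizer homeobox gene, were lower in MEFs by 3.45 and 2.55. Hand2, a bHLH factor of limb and heart mesenchyme, was called higher in MEFs at 0.91, but the mean of all its probe sets gave -0.16, so its direction depends on the probe set. Gata4, Gata6, Cdx2 and Hnf4a, factors of endoderm and trophectoderm, had differences of -0.13, 0.17, -0.12 and -0.40 that did not pass, and their means stayed below the median gene level of 7.03 in both groups.

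The epithelial and mesenchymal programmes separated the cells. Of 24 genes of embryonic epithelium, 0 were higher in MEFs, 21 were lower and 3 did not pass, with a median of -1.30. Cdh1, the epithelial cadherin, read 3.82, 4.09 and 3.85 in MEFs, against 9.07, 6.29 and 9.18 in P19 cells. Epcam, an epithelial adhesion molecule, read 4.75, 4.91 and 4.94 in MEFs, against 10.90, 10.01 and 10.86 in P19 cells. Krt8 and Krt18, which pair into the first keratin filaments of the embryo, were lower in MEFs by 3.88 and 4.35. The values of P19 control 2 were the lowest of the 3 P19 arrays for Cdh1 and Epcam and lay above every MEF array.

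Of 20 mesenchymal transition genes, 19 were higher in MEFs and 1, the ectonucleotidase gene Nt5e, was lower, at -0.44. Prrx1, a homeobox factor of limb and head mesenchyme, read 11.84, 11.84 and 11.76 in MEFs, against 4.79, 4.89 and 4.46 in P19 cells. Thy1, a surface protein used to mark fibroblasts, read 11.94, 12.04 and 12.01 in MEFs, against 6.27, 6.50 and 5.78 in P19 cells. Twist2 and Cdh11, a mesenchymal bHLH factor and a mesenchymal cadherin, were higher in MEFs by 5.69 and 4.86. Vim and Cdh2, the mesenchymal filament vimentin and N-cadherin, were already strong in P19 cells. Vim averaged 14.16 ± 0.02 in MEFs, against 12.79 ± 0.38 in P19 cells (SD, n = 3 each). Cdh2 averaged 11.43 ± 0.05 in MEFs, against 10.74 ± 0.72 in P19 cells, and its call was lost without P19 control 2, where the adjusted p was 0.196. Both are named outside the rule, for this contrast in level.

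Of 28 transcription factors of mesenchyme, 19 were higher in MEFs, 0 lower and 9 did not pass, with a median of 2.32. Nfix, a nuclear factor I protein, read 12.41, 12.26 and 12.30 in MEFs, against 6.13, 6.89 and 5.61 in P19 cells. Nfib, of the same family, read 10.95, 10.85 and 10.78 in MEFs, against 5.50, 4.82 and 5.47 in P19 cells. Tbx18 and Tbx15, T-box factors of trunk and limb mesenchyme, were higher in MEFs by 5.11 and 4.88. Fosl2, an AP-1 subunit, was higher by 4.22. Factors of other mesenchymal territories, Meox1, Meox2, Tcf21, Tbx5 and Foxf1, did not pass and had MEF means of 6.42, 3.78, 4.84, 5.62 and 5.96.

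Hox genes give position along the body axis, and those higher in MEFs lay within a limited range of the clusters. Of 33 measured, 16 were higher in MEFs, 6 lower and 11 did not pass, and without P19 control 2 the counts were 18 and 2. Hoxd8 read 11.28, 11.34 and 11.19 in MEFs, against 6.03, 5.79 and 6.03 in P19 cells. Hoxc4 read 9.51, 9.27 and 9.30 in MEFs, against 5.66, 5.80 and 5.19 in P19 cells. Hoxb6 and Hoxc8 were higher in MEFs by 3.25 and 3.43, and all 16 genes higher in MEFs have paralogue numbers from 2 to 9. Not every gene in that range was higher. Hoxb7 was called lower, at -0.64, and Hoxa3, Hoxa9 and Hoxc9 did not pass, at -0.22, -0.29 and 0.34. Other probe sets of Hoxa3 and Hoxa9 were called higher, at 2.18 and 1.24. The posterior genes Hoxa10, Hoxa11, Hoxc10, Hoxd10, Hoxd11 and Hoxd12 had MEF means of 4.01, 4.49, 4.46, 3.88, 4.53 and 4.50, against P19 means of 4.57, 4.63, 4.33, 3.81, 4.78 and 4.76. The probe sets of Hoxa5 disagreed, at -1.30 for the one used and 3.503 for another, so its direction is not settled here.

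**Figure D2:**
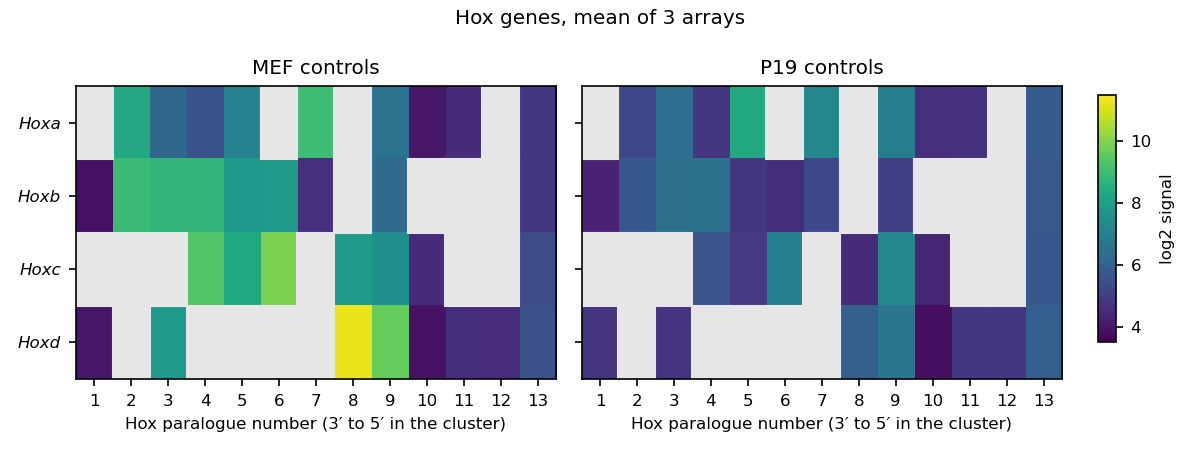
Mean log2 signal of each measured Hox gene (n = 3 arrays a group) in MEF controls, left, and P19 controls, right, by cluster and paralogue number; grey squares hold no measured gene. Colours compare the same gene between the panels. The 16 genes called higher in MEFs have paralogue numbers from 2 to 9, a range that also holds genes not called higher.

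Genes of the collagen matrix were higher in MEFs. Of 14 fibrillar and associated collagens, 12 were higher in MEFs and 2, Col14a1 and Col15a1, did not pass, with a median of 4.10. Col1a1, a chain of type I collagen, read 13.23, 13.17 and 12.99 in MEFs, against 6.10, 7.27 and 6.99 in P19 cells. Col1a2, the other chain, read 14.35, 14.34 and 14.30 in MEFs, against 8.19, 7.66 and 8.42 in P19 cells. All MEF arrays were near the top of the range. Col3a1 was higher in MEFs by 6.73, and the type VI chains Col6a1, Col6a2 and Col6a3 by 6.40, 4.97 and 5.58. Of 21 genes that modify, cross-link or export collagen, 15 were higher, 0 lower and 6 did not pass, and 15 higher and 3 lower without P19 control 2. Lox, the cross-linking lysyl oxidase, read 13.89, 13.86 and 13.87 in MEFs, against 7.85, 7.04 and 7.70 in P19 cells. The machinery that serves many secreted proteins differed less. P4hb, a subunit of prolyl hydroxylase and a disulfide isomerase, had a difference of 0.03 with a 95% interval from -0.24 to 0.29, and Serpinh1, the collagen chaperone, one of 0.32, from -0.04 to 0.68. A further Serpinh1 probe set of similar level was called higher in MEFs, at 0.595.

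Of 17 small proteoglycans and matricellular proteins, 12 were higher in MEFs, 0 lower and 5 did not pass. Thbs2, thrombospondin 2, read 12.73, 12.75 and 12.66 in MEFs, against 6.26, 5.91 and 6.26 in P19 cells. Postn, periostin, read 13.79, 13.62 and 13.64 in MEFs, against 7.72, 6.47 and 7.93 in P19 cells. Ccn1 and Ccn2, both immediate targets of YAP signalling, did not pass and were strong in both cells, at 11.004 and 10.67 in MEFs, against 11.09 and 10.21 in P19 cells. Basement membrane genes went both ways, with 8 of 17 higher, 5 lower and 4 not passing. Nid1 and Lama4 were higher in MEFs by 4.68 and 4.41. Their paralogues Nid2, Lama1 and Lama5 were lower by 3.24, 2.33 and 2.39, and Col18a1 by 2.50. Nid2 read 7.60, 7.28 and 7.11 in MEFs, against 10.79, 10.07 and 10.84 in P19 cells.

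Among 19 matrix proteases and inhibitors, 14 were higher in MEFs, 1 lower and 4 did not pass, and 16 higher and 2 lower without P19 control 2. Mmp3, stromelysin 1, read 10.76, 11.06 and 10.92 in MEFs, against 4.55, 4.42 and 4.68 in P19 cells. Mmp14, a membrane protease that activates the gelatinase Mmp2, and the inhibitor Timp2 were higher in MEFs by 4.21 and 4.76. Plau, urokinase, and Mmp9 stayed low in both cells and did not pass, at 4.76 and 5.89 in MEFs, against 5.11 and 5.59 in P19 cells. Adam12 was the member lower in MEFs, at -0.66.

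Of 24 integrin and focal adhesion genes, 13 were higher in MEFs, 2 lower and 9 did not pass, and 14 higher and 4 lower without P19 control 2. Itgav and Itga8, subunits of receptors for RGD-containing matrix proteins, were higher in MEFs by 3.17 and 3.77. Itga6, a laminin receptor subunit, read 8.39, 8.38 and 8.59 in MEFs, against 12.44, 11.70 and 12.47 in P19 cells, and Itga3, another laminin receptor subunit, was lower by 0.94. Of 22 caveolar and contractile genes, 16 were higher, 1 lower and 5 did not pass. Cav1, Cav2 and Cavin1, which build caveolae, were higher in MEFs by 3.96, 4.63 and 3.52. Acta2, Tagln, Myl9 and Tpm1, contractile genes of smooth muscle and myofibroblasts, did not pass. The probe sets of Tpm1 disagreed, as dimmer ones were called lower in MEFs, at -1.86 and -0.795, and a further strong one did not pass, at 0.22. Tagln averaged 12.06 ± 0.05 in MEFs, against 12.47 ± 0.23 in P19 cells (SD, n = 3 each). Cnn1, calponin, another gene of smooth muscle, read 5.21, 5.36 and 5.24 in MEFs, against 9.72, 9.28 and 9.79 in P19 cells.

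Growth factor receptors and ligands differed in both directions. Of 31 growth factor receptors, 19 were higher in MEFs, 6 lower and 6 did not pass. Pdgfra, a receptor for PDGF and a marker of mesenchyme, read 13.30, 13.26 and 13.22 in MEFs, against 6.45, 6.23 and 6.58 in P19 cells. Pdgfrb, the second receptor, read 12.47, 12.42 and 12.40 in MEFs, against 6.71, 5.42 and 7.06 in P19 cells. Axl, a receptor for Gas6, and Tgfbr2, the TGF-β binding receptor, were higher in MEFs by 4.76 and 3.97. Acvr2b, a receptor for activin and Nodal, read 6.40, 5.91 and 5.78 in MEFs, against 10.54, 10.00 and 10.39 in P19 cells. Erbb3, a neuregulin receptor, and Fgfr2 and Kit were lower in MEFs by 1.97, 1.35 and 1.32. Lifr, Egfr and Tgfbr1 did not pass with all 6 arrays, at -0.23, 0.18 and -0.24.

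Of 36 secreted growth factors and binding proteins, 22 were higher in MEFs, 10 lower and 4 did not pass. Fgf7, which acts on epithelia, read 12.16, 12.17 and 12.14 in MEFs, against 5.35, 6.22 and 5.40 in P19 cells. Ltbp2, a latent TGF-β binding protein family member, and Vegfd were higher in MEFs by 7.01 and 5.16. Fgf15, Bmp4, Tgfb2 and Igf2 were lower in MEFs by 3.42, 2.69, 2.82 and 3.46. The insulin-like growth factor binding proteins were divided, with Igfbp6 and Igfbp7 higher in MEFs by 4.76 and 5.70, and Igfbp2 and Igfbp3 lower by 7.76 and 2.60. In the Wnt pathway 7 of 28 genes were higher, 13 lower and 8 did not pass, beside 24.8% higher and 26.9% lower over all genes. Wnt5a, a ligand of the β-catenin-independent branch, and the inhibitors Dkk2 and Dkk3 were higher in MEFs by 3.43, 4.26 and 4.50. Other secreted inhibitors, Dkk1, Sfrp2 and Frzb, were lower in MEFs by 1.61, 1.59 and 1.25. Axin2, a feedback target of β-catenin, read 6.46, 6.04 and 6.41 in MEFs, against 8.69, 8.03 and 8.64 in P19 cells.

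The factors of muscle and nerve that MyoD and NeuroD2 belong to, with their partners, differed in both directions. Of 36 genes, 18 had means below the median gene level of 7.03 in both cells. In this group, 13 were higher in MEFs, 6 lower and 17 did not pass, with a median of 0.01. Over all genes 24.8% were higher and 26.9% lower, and 8795 of 18193 did not pass, a share close to that of this group. Neurod2 read 6.35, 6.50 and 6.67 in MEFs, against 6.52, 7.28 and 6.37 in P19 cells, a difference of -0.22 that did not pass (95% interval -0.61 to 0.18). Myog, Myf6, Neurod1, Neurod4 and Pax7 also did not pass, with MEF means of 5.24, 4.23, 4.25, 3.77 and 4.34, against P19 means of 5.31, 4.24, 4.41, 3.79 and 4.59. Myod1 read 7.22, 7.18 and 7.15 in MEFs, against 5.95, 5.40 and 5.82 in P19 cells, and Myf5 read 9.93, 10.15 and 10.12 in MEFs, against 4.33, 5.01 and 3.93 in P19 cells. The sources used here do not give which part of each gene the mutant alleles lack, so these signals from a Myod-/-/Myf5-/- genotype do not check the labels. Pax3, Six4 and Eya1, which act upstream of the muscle factors in somites, were higher in MEFs. Pax3 read 9.65, 9.72 and 9.58 in MEFs, against 5.88, 4.79 and 6.02 in P19 cells, and Six4 and Eya1 were higher by 2.68 and 1.93 (1.20 for Eya1 without P19 control 2). Tcf3, Tcf12 and Tcf4, the E proteins with which MyoD and NeuroD2 pair on DNA, differed by 0.19, 0.93 and 2.12, and the first of these did not pass. The value for Tcf12 was 0.56 without P19 control 2. Id1 and Id3, which hold E proteins away from DNA, were higher in MEFs by 1.48 and 1.41.

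Genes of finished muscle and of neurons were not a feature of the MEFs. Of 14 skeletal muscle markers, 0 were higher in MEFs, 7 lower and 7 did not pass. Actc1, the actin of heart and developing muscle, read 5.02, 5.01 and 5.32 in MEFs, against 10.40, 9.96 and 10.40 in P19 cells, and Ttn, titin, read 4.36, 4.43 and 4.23 in MEFs, against 6.64, 7.89 and 6.75 in P19 cells. Ckm, Mylpf and Chrna1, which appear in differentiated muscle, did not pass and averaged 5.94, 5.52 and 4.70 in MEFs, against 6.27, 5.62 and 4.75 in P19 cells. Of 14 neuron markers, 13 were lower in MEFs and 1 did not pass, with a median of -2.01. All 14 were lower without P19 control 2, and the part of neuron-like cells in the P19 cultures was not tested. Stmn2, a microtubule regulator of growing axons, read 5.53, 5.32 and 5.52 in MEFs, against 11.13, 10.49 and 11.27 in P19 cells. Tubb3 and Nefl, a neuronal tubulin and a neurofilament, were lower in MEFs by 3.17 and 4.31.

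Markers of other cell types were checked in both groups. Of 11 markers of macrophages and blood, 0 were higher and 2 lower in MEFs, and the mean signal over the list was 5.14 to 5.21 in the MEF arrays, against 5.23 to 5.98 in the P19 arrays. Only 1 was lower without P19 control 2. Of 12 endothelial markers, 0 were higher and 6 lower (5 without P19 control 2), with list means of 5.16 to 5.21 in MEFs, against 5.59 to 6.12 in P19 cells. The macrophage markers Adgre1, Cd68 and Itgam averaged 4.70, 5.22 and 4.04 in MEFs, and the endothelial markers Cdh5 and Vwf 4.92 and 4.54. Keratinocyte markers gave 0 higher and 2 lower of 8. Of 7 adipocyte markers, 1 was higher in MEFs, 1 lower and 5 did not pass (2 higher and 1 lower without P19 control 2). Lpl, a lipase, was higher at 2.38 and Cd36, a fatty acid carrier, lower at -0.79, while Adipoq and Fabp4 stayed at 3.78 and 4.71 in MEFs. Of 11 cartilage and bone markers, 2 were higher, among them Sox9 at 2.62, 3 lower and 6 did not pass.

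Interferon-stimulated genes were higher in MEFs. Of 27 measured, 24 were higher in MEFs, 1 lower and 2 did not pass, with a median of 3.77, while 25 were higher and 0 lower without P19 control 2. Ifit1, which binds foreign RNA caps, read 11.28, 11.07 and 11.13 in MEFs, against 4.08, 4.16 and 4.04 in P19 cells. Usp18, a negative regulator of the interferon receptor, read 11.07, 10.73 and 11.01 in MEFs, against 4.86, 5.44 and 4.88 in P19 cells. The P19 values of both lay near the floor of the arrays. Stat2 and Irf9, transcription factors of interferon signalling, were higher in MEFs by 3.41 and 3.77, and Ifih1 and Ddx58, which sense viral RNA, by 4.14 and 4.30; these 4 are named outside the rule for their roles. Irf1 and Rsad2 did not pass, at 0.09 and -0.07.

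Interferon-stimulated genes carry short response elements near their start sites, and these 3 promoters are shown because, of the list's genes with a match in the 150 bases before the start, theirs differed most. In RefSeq windows of 250 bases before to 50 bases after the start (GRCm38.p6), 13 of the 21 interferon genes with a window held the core GAAANNGAAA on either strand, against 3.5% of the 27025 genes in the table. Over the 14368 measured genes with a window the share was 3.0%. The 6 other interferon genes had no window, and a match describes letters, not a bound site. Each sequence holds the 150 bases before the start, in the sense of transcription, with the matched core in capitals. Ifit1 lies at chr19:34640739-34640888 (plus strand), Ifit3 at chr19:34583379-34583528 (plus strand) and Gbp3 at chr3:142559894-142560043 (plus strand), where the 2 matches overlap.
Ifit1: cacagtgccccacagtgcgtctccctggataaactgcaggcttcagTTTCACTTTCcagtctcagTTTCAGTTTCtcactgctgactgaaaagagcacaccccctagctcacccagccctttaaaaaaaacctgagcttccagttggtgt
Ifit3: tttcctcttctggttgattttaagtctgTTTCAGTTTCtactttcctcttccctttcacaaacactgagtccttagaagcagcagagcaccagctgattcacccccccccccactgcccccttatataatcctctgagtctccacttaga
Gbp3: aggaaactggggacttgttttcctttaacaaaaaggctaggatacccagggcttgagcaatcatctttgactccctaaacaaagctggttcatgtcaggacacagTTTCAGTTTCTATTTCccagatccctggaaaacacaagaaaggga
Ifit3 and Gbp3 had log2 differences of 5.19 and 4.76, beside 7.07 for Ifit1.

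Cytokine and chemokine genes were likewise higher in MEFs. Of 30 genes of innate sensing, 27 were higher in MEFs, 1 lower and 2 did not pass, with a median of 2.69. Ccl2, a chemokine that draws monocytes, read 13.41, 13.44 and 13.46 in MEFs, against 5.44, 7.31 and 5.58 in P19 cells, where control 2 was the highest. Saa3, an acute phase protein, read 14.11, 14.11 and 13.995 in MEFs, against 6.46, 6.60 and 6.18 in P19 cells. C1ra and C1s1, proteases of the classical complement pathway, were higher in MEFs by 6.97 and 6.92, and the chemokines Ccl7 and Cxcl5 by 7.10 and 6.86. Cx3cl1, a membrane-bound chemokine, went the other way, with 5.79, 5.41 and 5.78 in MEFs, against 10.42, 9.42 and 10.29 in P19 cells. Cfb did not pass, at -0.28. The probe sets of Il6ra disagreed, with -0.09, which did not pass, for the one used and 1.56, called higher, for another.

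The next 3 promoters are shown because their genes are the members of largest difference in the cytokine list with a match to the NF-κB motif close to the start. The letters GGGANTTNCC, on either strand, were found in 7 of the 21 cytokine-list genes with a window, against 1.2% of the genes in the table. Over the 14368 measured genes with a window the share was 1.3%. Il6 lies at chr5:30012964-30013113 (plus strand), Nfkbia at chr12:55492648-55492797 (minus strand) and Cxcl1 at chr5:90891095-90891244 (plus strand), and capitals mark the match.
Il6: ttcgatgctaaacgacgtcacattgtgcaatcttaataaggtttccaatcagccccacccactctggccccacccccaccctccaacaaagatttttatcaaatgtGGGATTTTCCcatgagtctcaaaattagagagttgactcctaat
Nfkbia: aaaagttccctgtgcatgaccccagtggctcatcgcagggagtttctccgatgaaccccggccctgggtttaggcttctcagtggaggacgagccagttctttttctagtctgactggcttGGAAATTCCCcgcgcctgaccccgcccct
Cxcl1: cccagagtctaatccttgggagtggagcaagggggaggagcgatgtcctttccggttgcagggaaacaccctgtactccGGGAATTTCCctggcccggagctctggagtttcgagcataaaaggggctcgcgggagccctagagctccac
Il6, interleukin 6, read 8.46, 8.46 and 8.33 in MEFs, against 4.25, 4.68 and 4.36 in P19 cells. Nfkbia, the inhibitor that NF-κB induces against itself, was higher in MEFs by 2.92, and Cxcl1, a neutrophil chemokine, by 1.90.

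Of 18 antigen presentation genes, 12 were higher in MEFs, 1 lower and 5 did not pass, with a median of 1.12. Leaving out P19 control 2, 12 were higher and 0 lower. B2m, the light chain of class I molecules, read 14.02, 13.88 and 13.89 in MEFs, against 10.31, 9.26 and 10.36 in P19 cells. Tapbp, which loads peptides on class I molecules, was higher in MEFs by 3.16. The class I heavy chain H2-K1 was higher by 2.92, while the probe sets of H2-D1 disagreed, at 5.06 and -3.65, and class I genes of this family share sequence, so values of single heavy chains are uncertain. The class II genes H2-Aa, Cd74 and Ciita did not pass and averaged 4.87, 6.52 and 4.95 in MEFs, against 4.71, 6.59 and 4.85 in P19 cells.

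**Figure D3:**
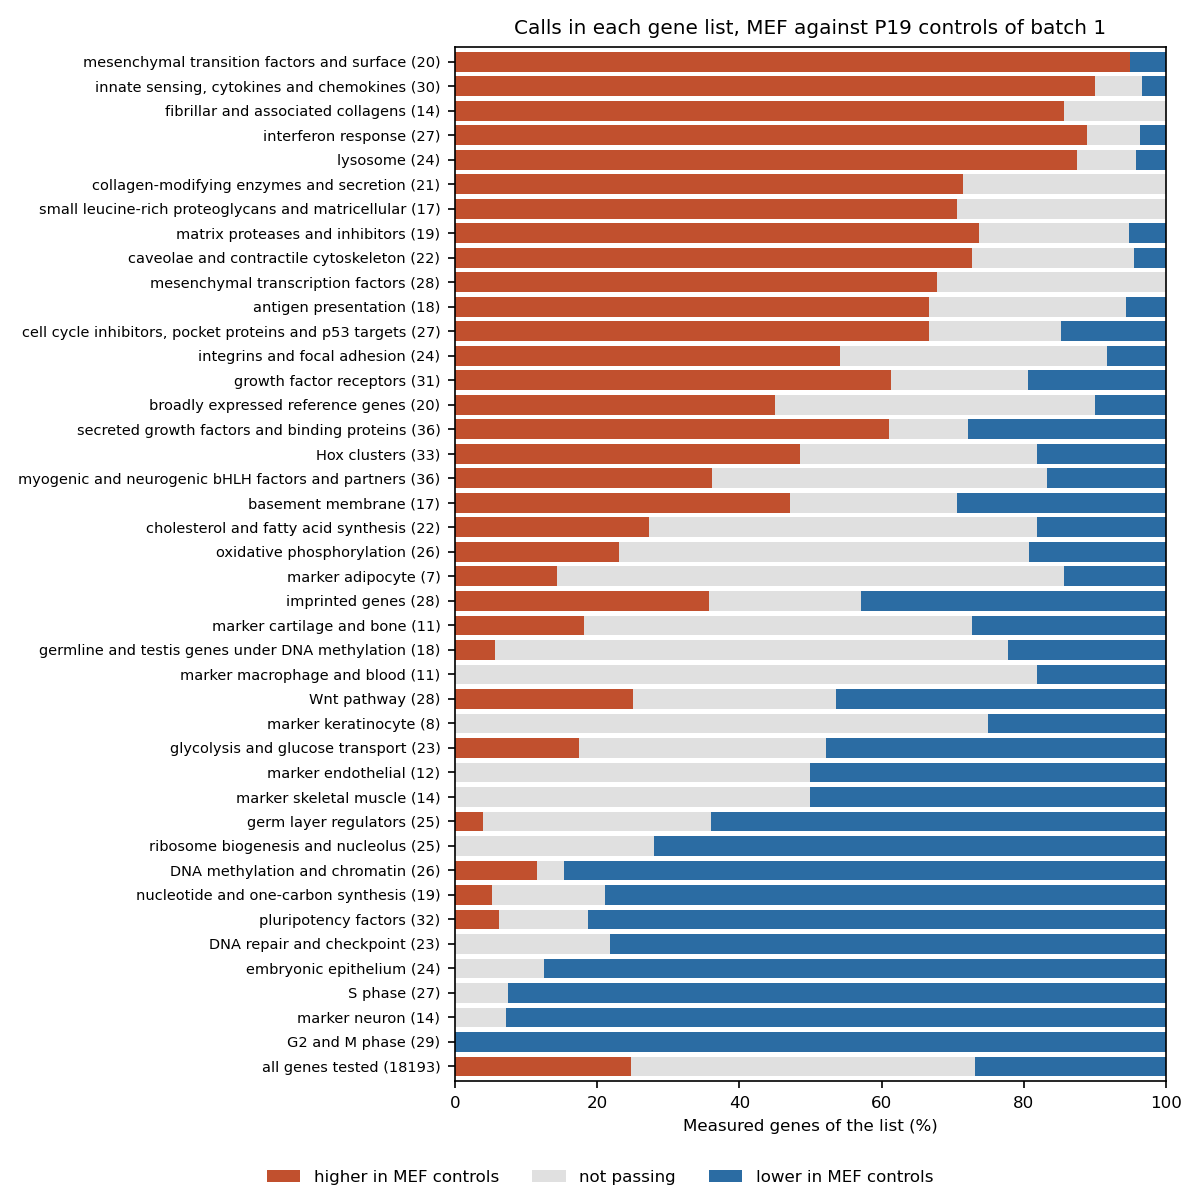
Share of the measured genes of each list (number in brackets) that were higher in MEF controls, did not pass or were lower in MEF controls of batch 1, in percent, with all 18193 genes at the bottom. Mesenchymal transition, cytokine, collagen and interferon genes stand at the top, and neuron markers, S phase and G2 and M phase genes at the bottom.

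Genes of the dividing cell were lower in MEFs. Of 29 genes of G2 and M phase, 0 were higher and 29 lower in MEFs, with a median of -2.92, and all kept that direction and call without P19 control 2 (29 lower). Aurkb, a mitotic kinase, read 6.03, 6.23 and 6.17 in MEFs, against 10.71, 9.52 and 10.66 in P19 cells. Plk1, the polo kinase of mitotic entry, read 7.05, 6.97 and 7.06 in MEFs, against 11.05, 10.23 and 11.13 in P19 cells. The MEF arrays lay close together, and P19 control 2 was the lowest P19 array for both. Of 27 genes of S phase, 0 were higher, 25 lower and 2 did not pass, with a median of -1.66. Cdc6, which loads the replicative helicase, read 6.01, 6.06 and 6.30 in MEFs, against 10.46, 9.68 and 10.57 in P19 cells. Mcm10 was lower in MEFs by 3.31, and the polymerase and ligase genes Pole and Lig1 by 2.33 and 2.50. E2f1 and Rrm1 did not pass, at 0.43 and -0.06. Of 23 DNA repair genes, 18 were lower, 0 higher and 5 did not pass, and Exo1, a repair exonuclease, read 5.74, 5.86 and 5.73 in MEFs, against 10.05, 9.31 and 10.16 in P19 cells. Ung, the uracil glycosylase, and Brca1 were lower in MEFs by 3.86 and 3.45.

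Mitotic promoters often carry CCAAT boxes, and replication promoters E2F sites, and these sequences are shown for the members of largest difference in each list with a match close to the start. CCAAT, on either strand, was found in 19 of 24 G2 and M phase genes with a window (79.2%), against 37.9% of the genes in the table. The short element TTTGAA or TTCGAA of late cell cycle promoters was found in 18 of the same 24 (75%), against 19.4%. TTTCCCGC or TTTGGCGC was found in 9 of 22 S phase genes with a window (40.9%), against 1.6%. Over the 14368 measured genes with a window, the shares for CCAAT, the short element and the E2F letters were 38.2%, 15.1% and 2.5%. Capitals mark CCAAT or its complement in Espl1, Bub1 and Cenpf, and the E2F letters or their complement in Cdc6, Mcm5 and Mcm6. Espl1 lies at chr15:102296143-102296292 (plus strand), Bub1 at chr2:127831860-127832009 (minus strand) and Cenpf at chr1:189688087-189688236 (minus strand). Cdc6 lies at chr11:98908001-98908150 (plus strand), Mcm5 at chr8:75109359-75109508 (plus strand) and Mcm6 at chr1:128359706-128359855 (minus strand).
Espl1: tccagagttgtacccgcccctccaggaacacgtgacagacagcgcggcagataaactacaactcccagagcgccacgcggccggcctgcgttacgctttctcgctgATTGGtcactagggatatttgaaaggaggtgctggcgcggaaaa
Bub1: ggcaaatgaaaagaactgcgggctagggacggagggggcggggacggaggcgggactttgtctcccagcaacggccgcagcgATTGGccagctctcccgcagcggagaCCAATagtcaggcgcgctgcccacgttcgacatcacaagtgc
Cenpf: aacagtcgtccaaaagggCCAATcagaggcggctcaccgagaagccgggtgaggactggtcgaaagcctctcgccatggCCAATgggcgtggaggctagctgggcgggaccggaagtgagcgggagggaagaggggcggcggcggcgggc
Cdc6: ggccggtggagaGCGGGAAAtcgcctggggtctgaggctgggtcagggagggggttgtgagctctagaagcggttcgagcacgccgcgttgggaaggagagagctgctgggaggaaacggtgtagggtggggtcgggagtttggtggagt
Mcm5: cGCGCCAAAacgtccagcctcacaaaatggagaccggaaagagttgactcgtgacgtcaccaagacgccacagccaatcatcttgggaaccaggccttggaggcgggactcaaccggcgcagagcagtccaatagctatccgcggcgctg
Mcm6: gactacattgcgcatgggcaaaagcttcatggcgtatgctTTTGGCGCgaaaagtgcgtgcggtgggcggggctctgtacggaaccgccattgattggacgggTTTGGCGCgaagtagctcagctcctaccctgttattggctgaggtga
Espl1, separase, was lower in MEFs by 4.16, the checkpoint kinase Bub1 by 3.78 and the kinetochore protein Cenpf by 3.78. The helicase subunits Mcm5 and Mcm6 were lower by 2.52 and 1.40.

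Most listed genes that restrain the cycle were higher in MEFs. Of 27 inhibitors, pocket proteins and p53 targets, 18 were higher in MEFs, 4 lower and 5 did not pass, with a median of 1.63. Cdkn2a, the locus of p16 and Arf, read 9.35, 9.23 and 8.97 in MEFs, against 4.87, 4.64 and 5.26 in P19 cells. Cdkn1a, p21, read 11.84, 11.72 and 11.74 in MEFs, against 8.23, 8.51 and 8.11 in P19 cells. The inhibitors Cdkn1c and Cdkn2d were lower in MEFs by 0.69 and 0.51, and Cdkn1b did not pass, at 0.41. The pocket proteins split, with Rbl2 higher in MEFs by 4.37 and Rbl1 lower by 1.11. Rb1, named outside the rule to complete this family, read 9.44, 9.35 and 9.32 in MEFs, against 6.95, 4.51 and 7.11 in P19 cells. Cdk4, Cdk6 and Ccnd3, which push the cell toward S phase, did not pass, at 0.18, -0.24 and 0.19. Another probe set of each was called, at 0.30, -1.11 and 0.29. Rbl1 in P19 control 2 lay within the MEF values, and its difference without that array was -1.66.

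**Figure D4:**
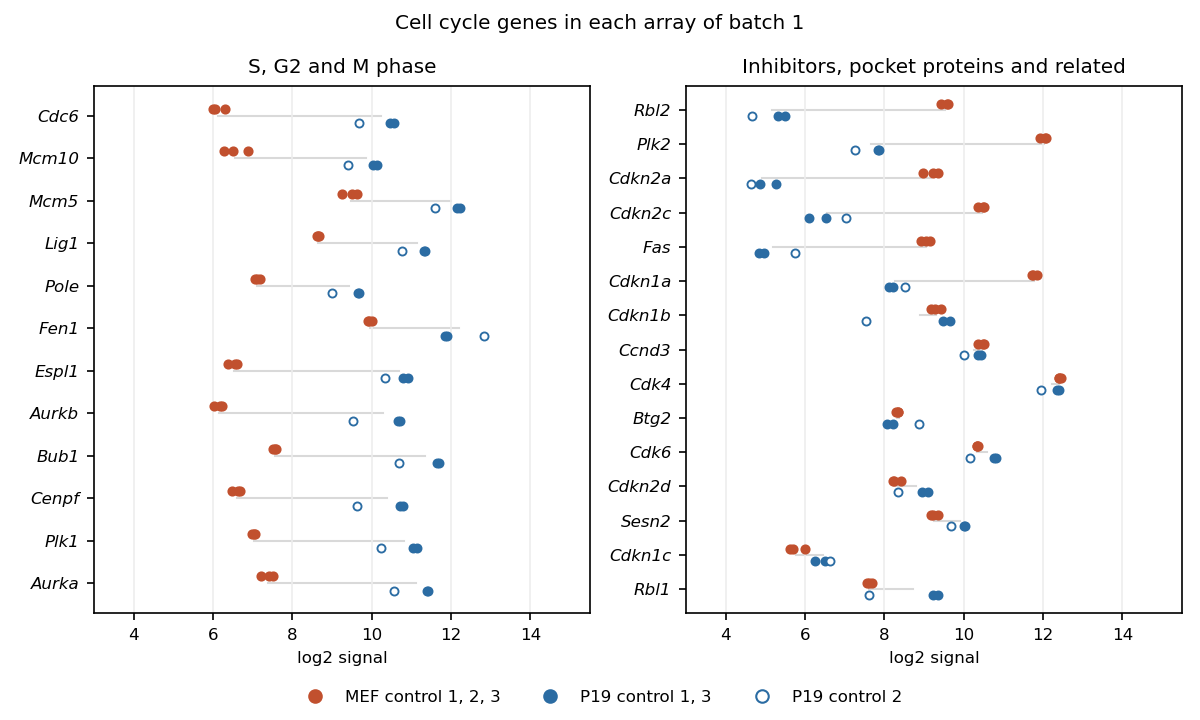
Log2 signal of S phase and of G2 and M phase genes (the 6 of largest difference in each), left, and of named cell cycle inhibitors and related genes, right, 1 point per array (MEF controls above each line, P19 controls below it, P19 control 2 open). All 12 genes on the left lie lower in MEFs, and Rbl2 to Cdkn1a at the top right lie higher in MEFs.

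Most genes of ribosome biogenesis were lower in MEFs. Of 25 ribosome biogenesis genes, 0 were higher in MEFs, 18 lower and 7 did not pass, with a median of -1.01. Mycn, a Myc family factor of embryonic cells, read 5.94, 5.96 and 6.23 in MEFs, against 11.95, 11.14 and 11.96 in P19 cells. Myc itself read 9.97, 10.15 and 10.33 in MEFs, against 10.02, 8.87 and 10.15 in P19 cells, and did not pass. Of 19 genes of nucleotide and one-carbon synthesis, 1 was higher, 15 lower and 3 did not pass. Gldc, the glycine decarboxylase, read 4.97, 4.92 and 5.12 in MEFs, against 10.19, 9.64 and 10.12 in P19 cells. Shmt1, a cytosolic enzyme of serine and glycine exchange, was lower in MEFs by 2.81, while its mitochondrial counterpart Shmt2 differed by 0.02 and did not pass.

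Genes of glucose uptake and glycolysis were more often lower than higher in MEFs. Of 23, 4 were higher in MEFs, 11 lower and 8 did not pass. Without P19 control 2, 4 were higher and 15 lower, and in the pair of MEF batch 2 and P19 batch 3, 3 higher and 19 lower. Slc2a3, the glucose transporter GLUT3, read 4.78, 4.91 and 4.71 in MEFs, against 13.62, 12.96 and 13.55 in P19 cells, the second largest of the differences in which MEFs were lower. Slc2a1, the transporter GLUT1, was lower in MEFs by 1.77. Hk1 and Hk2, the hexokinases, were higher by 2.50 and lower by 3.19 in MEFs. Slc16a3 and Slc16a1, lactate carriers, were lower in MEFs by 3.70 and 1.75. Aldoa, Tpi1 and Pgk1 did not pass and were strong in both cells, at 12.25, 12.36 and 13.21 in MEFs, against 12.03, 12.22 and 13.08 in P19 cells. Of 26 oxidative phosphorylation genes, 6 were higher, 5 lower and 15 did not pass, with a median of -0.06. Over all genes 24.8% were higher and 26.9% lower, and 24.1% and 31.4% without P19 control 2. The oxidative phosphorylation counts without P19 control 2 were 4 higher and 14 lower, so the calls in this list changed with that array. The same held for 22 cholesterol and fatty acid genes, with 6 higher and 4 lower, against 3 higher and 9 lower without it.

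Of 24 lysosomal genes, 21 were higher in MEFs, 1 lower and 2 did not pass, with a median of 1.51. Ctsk, a cathepsin that digests collagen, read 11.48, 11.58 and 11.48 in MEFs, against 5.10, 5.73 and 4.66 in P19 cells. Hexa, a hexosaminidase subunit, read 12.83, 12.88 and 12.78 in MEFs, against 9.58, 8.41 and 9.73 in P19 cells. Ctsb and Lamp2, a protease and a membrane protein of lysosomes, were higher in MEFs by 3.16 and 2.61. Tfeb, a master regulator of these genes, did not pass, at -0.33.

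Of 26 genes of DNA methylation and chromatin, 22 were lower in MEFs, 3 higher and 1 did not pass, with a median of -1.75. Dnmt3b, a de novo methyltransferase, read 6.46, 6.23 and 6.46 in MEFs, against 12.05, 11.20 and 12.27 in P19 cells. Tet1, which oxidizes methylcytosine, and Uhrf1, which guides maintenance methylation, were lower in MEFs by 3.14 and 3.20. Jarid2, a partner of Polycomb complex 2, and Chd7, a remodeller, were lower by 3.56 and 4.64. The SWI/SNF subunits Smarca2 and Smarcc2 and the nuclear lamin Lmna were higher in MEFs. Lmna read 11.67, 11.497 and 11.55 in MEFs, against 7.29, 6.71 and 7.25 in P19 cells, and Smarca2 and Smarcc2 were higher by 2.27 and 3.10. Of 18 germline genes that DNA methylation keeps silent in somatic cells, 1 was higher, 4 lower and 13 did not pass, while 2 were lower without P19 control 2 and 1 in the independent pair. Ddx4, Sycp1 and Mael had P19 means of 3.57, 3.91 and 3.76.

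Imprinted genes, expressed from 1 parental copy, went both ways, with 10 of 28 higher in MEFs, 12 lower and 6 not passing. Mest, a hydrolase-like gene of embryonic mesoderm, read 5.38, 5.16 and 4.998 in MEFs, against 12.71, 12.05 and 12.77 in P19 cells. Slc38a4, an amino acid carrier, and Phlda2, a restrainer of placental growth, were lower in MEFs by 4.78 and 4.30. Magel2 and Nnat were lower by 4.23 and 4.06. Igf2r, which clears the ligand Igf2, was higher in MEFs by 3.31, while Igf2 was lower by 3.46. Grb10, a growth inhibitor, was higher by 2.35. Dlk1, a Notch-related protein of progenitors, was called higher at 2.78, but gave -0.18 when probe sets that can match several transcripts were left out. The probe sets of Meg3 disagreed, so no direction is given for it.

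The sex chromosome genes were read in every array. Xist, the RNA that silences an X chromosome, read 5.16, 5.195 and 5.21 in MEFs, against 5.34, 6.16 and 5.27 in P19 cells, and did not pass. Y-linked Kdm5d read 8.59, 8.67 and 8.58 in MEFs, against 7.56, 4.91 and 7.72 in P19 cells. Eif2s3y, also Y-linked, read 9.93, 9.92 and 9.87 in MEFs, against 8.33, 6.08 and 8.67 in P19 cells. Uty read 8.35, 8.32 and 8.38 in MEFs, against 7.81, 5.34 and 7.97 in P19 cells. All 3 Y-linked genes were lowest in P19 control 2. With all arrays Eif2s3y, Kdm5d and Uty were called higher in MEFs by 2.21, 1.88 and 1.31, and without P19 control 2 the differences were 1.40, 0.97 and 0.46, with adjusted p of 9.09e-09, 6.52e-06 and 0.00812. In the independent pair Eif2s3y was called higher in MEFs by 1.05, while Kdm5d and Uty did not pass, at 0.41 and 0.35.

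Genes often used as reference in expression assays were not all level between these cells. Of 20, 9 were higher in MEFs, 2 lower and 9 did not pass, with a median of 0.19. Without P19 control 2, 9 were higher and 6 lower, with a median of 0.03, and in the independent pair 5 were higher and 7 lower. Rplp0, Eef1a1 and Psmb4 did not pass, at 0.08, 0.10 and 0.05. Gusb and Hprt, both common reference genes, were higher in MEFs by 1.60 and 1.07. Actb, β-actin, was called higher in MEFs at 0.30 (0.19 without P19 control 2), and the mean of all its probe sets gave 0.03, which did not pass. Tubb5, a β-tubulin, was lower by 0.54. B2m, described above, differed by 3.95.

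The independent pair of untransduced groups shares no array with batch 1, but its calls used the same pooled spread, to which the batch 1 arrays contribute. Its count of 8602 called genes was 11015 without P19 control 2 of batch 1, and 9288 with only its own arrays fitted. In the fit of all arrays, 3727 genes (20.5%) were higher in MEFs of batch 2 and 4875 (26.8%) lower than in P19 cells of batch 3. Cell type and batch cannot be told apart in that pair. Of the 1543 genes more than 2-fold higher in batch 1, 1520 (98.5%) were called higher there too, and of the 1068 more than 2-fold lower, 1064 (99.6%) were called lower. In this pair Nanog differed by -5.77, Prrx1 by 7.20, Col1a1 by 7.24, Ifit1 by 7.19, Aurkb by -5.02 and Cdkn2a by 3.56, beside -4.46, 7.10, 6.34, 7.07, -4.15 and 4.26 in batch 1. The median of the pluripotency genes was -3.83 in this pair, that of the collagens 4.88, of the interferon response 3.40, of S phase -2.68 and of G2 and M phase -4.51, beside 0.01 over all genes. With all 6 arrays of batch 1, other groups had medians of opposite sign in the 2 pairs. Among them were the reference genes at -0.10 beside 0.19 in batch 1, and the cholesterol and fatty acid genes at -0.21 beside 0.05. Markers of cartilage and bone stood at 0.11 beside -0.52, macrophage markers at 0.16 beside -0.29, and X and Y chromosome genes at -0.11 beside 0.07. Without P19 control 2 those batch 1 medians were 0.03, -0.09, -0.06, -0.08 and -0.09, in the same order. The cholesterol and fatty acid genes and the X and Y chromosome genes then had the same sign in both pairs. The G2 and M phase genes were again all lower in MEFs (29 of 29). A test of the difference between the 2 pairs called 1012 genes (5.56%), 247 more positive and 765 more negative in the second pair, that is 24.4% more positive. That count moved with single arrays. Without P19 control 1, 2 or 3 of batch 1 it was 3817, 2322 and 5590, without MEF control 1, 2 or 3 of batch 1 it was 502, 492 and 486, and without MEF control 2 or 3 of batch 2 it was 633 and 454. After quantile normalization 40.0% of the calls were more positive.

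Among those genes, Peg10, an imprinted gene derived from a retrotransposon, differed by -5.60 in the second pair and by -1.71 in batch 1. It averaged 4.76 ± 0.20 in MEFs of batch 2, against 10.36 ± 0.50 in P19 cells of batch 3 (SD, n = 3 each), and 4.53 ± 0.14 in MEFs of batch 1, against 6.24 ± 0.85 in P19 cells of batch 1, so the P19 groups carried the gap. Slc16a3, Nrk, Rps6ka5 and Lbh were also more negative in the second pair, by -2.63, -2.93, -2.70 and -2.64. Rps6ka5 read 6.62, 6.40 and 6.52 in MEFs, against 6.82, 4.09 and 7.25 in P19 cells of batch 1, where control 2 was far below its partners. Without that array its gap was -1.72, and its batch 1 difference was -0.52 in place of 0.46. Wfdc17, a secreted protein with a WAP domain, and Serpina3n, an acute phase protease inhibitor, were more positive in the second pair by 2.91 and 2.50. Wfdc17 averaged 9.37 ± 0.04 in MEFs of batch 2, against 5.29 ± 0.17 in P19 cells of batch 3 (SD, n = 3 each), and 7.40 ± 0.07 in MEFs of batch 1, against 6.23 ± 0.69 in P19 cells of batch 1. Ttn, Clu and Angptl4 were more positive by 2.00, 1.94 and 1.86.

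**Figure D5:**
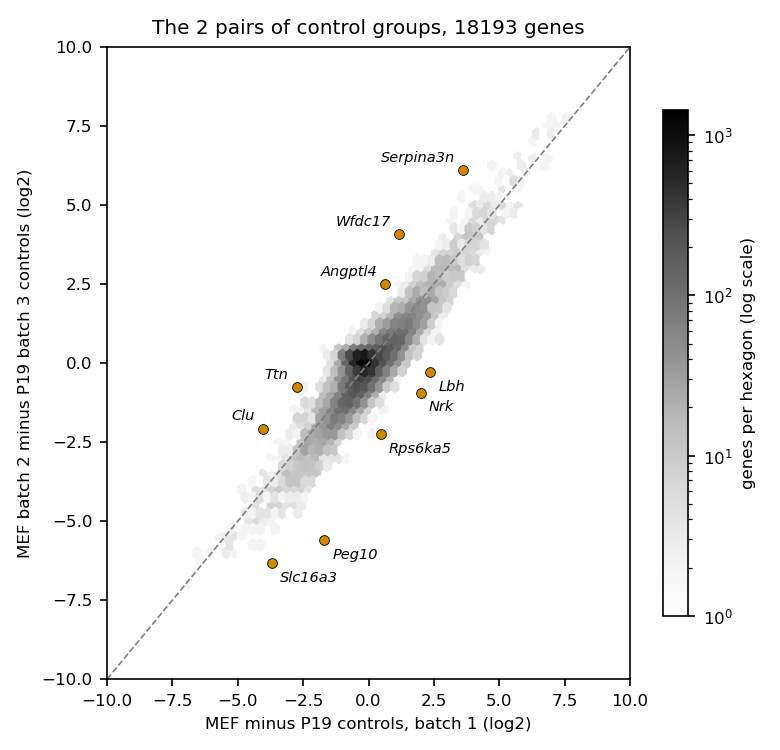
Difference of MEF minus P19 controls in batch 1 (horizontal) and of MEF controls of batch 2 minus P19 controls of batch 3 (vertical) on the log2 scale, for 18193 genes, with darker hexagons holding more genes and a dashed line of equality. Points near the line differ alike in both pairs; the 10 named genes are those with the largest called gaps between the pairs, such as Peg10 (-3.89) and Wfdc17 (2.91).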

How the data were processed

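RNA of 24 samples was measured, each on its own Affymetrix mouse array. Titles gave the group, batch and replicate number of a sample. The values are log2 signals as deposited by the authors, and were used without further scaling. P19 control 2 has quartiles of 4.79 and 7.63, against 4.51 to 4.55 and 8.28 to 8.33 in the other 5 arrays compared. The submitters' processing notes name limma, without a version. How the authors corrected background, normalized and summarised probes is not stated in the labels. Column medians lay between 5.76 and 5.99. With 3 arrays a group, the number of arrays limits the precision, and the median standard error of a difference was 0.17 (0.12 without P19 control 2).

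Of 45101 probe sets, 64 controls, 9160 without a symbol in the platform annotation and 932 with several symbols were set aside, and the others gave 18193 genes. The brightest probe set on average represented each gene. Group means were fitted to the 24 arrays in limma 3.58.1 under R 4.3.3 (16 residual and 3.89 prior degrees of freedom). Contrasts were two-sided with Benjamini-Hochberg adjustment over 18193 genes, and "higher" and "lower" mean an adjusted p under 0.05. The difference between the pairs was tested as a contrast of contrasts, and the fit was tested on simulated data. The naming rule covered 327 called genes, and 200 of them had further probe sets. Among 385 such probe sets, 5 gave a call in the opposite direction and 112 gave no call. Among named genes that did not pass, 70 were checked for other probe sets. Of these, 13 had another probe set that was called, namely Ccnd3, Cdk4, Cdk6, Cdx2, E2f1, Egfr, Fabp4, Fgf4, Il6ra, Lifr, Mmp9, Nr5a2 and Serpinh1. Hoxa3, Hoxa9, Tpm1 and Col14a1 were outside the 70 and also had another probe set that was called, for Col14a1 at -0.51. Promoter windows were matched by gene ID to RefSeq, for 14368 of the 18193 genes, and each motif share counts only members with a window.

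The comparison, the gene lists and the naming rule were chosen with earlier results of these data known. The naming rule took the 4 markers, the 12 largest differences each way among genes called with and without P19 control 2 whose groups did not overlap and whose higher mean passed the median gene level of 7.03, up to 6 called members each way of each list and members that did not pass, Myod1, Myf5, Neurod2, Xist and Y-linked genes, and the 5 largest gaps each way between the pairs. Some members of a list beyond its first 6 are named as well, for their role or for a sequence shown, after their values were seen. Alternatives are given in the closing section.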

Additional observations from a re-analysis of the deposited data

Results flagged for a closer look

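For the genes below, the MEF minus P19 difference was not the same in the 2 pairs of control groups, by a limma contrast of contrasts at an adjusted p under 0.05 with and without P19 control 2. Values are (MEF batch 2 minus P19 batch 3) minus (MEF batch 1 minus P19 batch 1) on the log2 scale, and batch and pair cannot be told apart in them.

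Peg10 (-3.89), Nrk (-2.93), Rps6ka5 (-2.70), Lbh (-2.64) and Slc16a3 (-2.63) had the most negative values among genes above the median level, and without P19 control 2 the value for Rps6ka5 was -1.72. Nrk, a kinase of the placenta and embryo, averaged 7.01 ± 0.36 in MEFs of batch 2, against 7.94 ± 0.36 in P19 cells of batch 3 (SD, n = 3 each), and 7.63 ± 0.15 in MEFs of batch 1, against 5.63 ± 0.70 in P19 cells of batch 1. Lbh, a transcriptional cofactor of limb and heart, averaged 8.10 ± 0.15 in MEFs of batch 2, against 8.38 ± 0.32 in P19 cells of batch 3, and 7.91 ± 0.09 in MEFs of batch 1, against 5.54 ± 0.63 in P19 cells of batch 1. Wfdc17 (2.91), Serpina3n (2.50), Ttn (2.00), Clu (1.94) and Angptl4 (1.86) had the most positive values. Serpina3n averaged 11.24 ± 0.11 in MEFs of batch 2, against 5.13 ± 0.06 in P19 cells of batch 3, and 9.56 ± 0.26 in MEFs of batch 1, against 5.95 ± 1.20 in P19 cells of batch 1.

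Genes of replication, repair and mitosis were more negative in the second pair, namely Bub1 (-2.39), Mcm5 (-1.83), Cenpf (-1.81), Brca1 (-1.58), Uhrf1 (-1.37), Pole (-1.09), Plk1 (-1.01), Lig1 (-0.86) and Mcm6 (-0.85). Genes of glucose and one-carbon metabolism were Aldoa (-1.18), Tpi1 (-1.10), Pgk1 (-0.79) and Shmt1 (-0.94). Among signalling, position and reference genes were Wnt5a (-1.34), Dkk2 (-1.13), Cavin1 (-1.82), Cavin2 (-1.31), Hprt (-1.26), Bex1 (-1.06), Klf4 (-0.92), Cdx2 (-0.83) and Hoxd8 (-0.79). Immune genes went both ways, with H2-K1 (-0.98), Ifih1 (-0.78) and Tapbp (-0.52) more negative and Stat2 (0.71), Cxcl5 (0.83) and Il6 (1.66) more positive. Matrix genes Col6a2 (0.88), Mmp9 (0.97), Dpt (1.40) and Mmp3 (1.73) were more positive in the second pair.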

How the results depend on the processing

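The arrays hold no detection calls, so low signals are bounded by background, and P19 control 2 sets much of the spread. The gene counts in this section cover 274 of the genes named in the report. Of these 274, 204 were called. Of the called genes, 185 kept call and direction under each of the 15 alternatives run in batch 1 that included the gene. The run without dim genes included 248 of the 274, and the run without probe sets that can match several transcripts 269. The counts of genes called in batch 1 and of genes above 2-fold stayed within 1.5 times under the alternatives other than the fit of only the arrays compared, which used fewer samples and gave 5075 and 1628 genes. Under that fit 16 named genes lost their call, among them Adam12, Actb, Eya1, Tcf12, Rbl1, Zfp42, Nt5e, Tubb5, Eif2s3y, Kdm5d and Uty. The direction of a named gene turned in Angptl4 (-0.036) and Dlk1 (-0.18) without probe sets that can match several transcripts, in Hand2 (-0.16) with the mean of all probe sets, and in Hoxa5 in both cases (3.503 and 1.10), where the cause is the choice of probe set.

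The count of genes whose difference differs between the pairs, 1012, ran from 454 to 5590 when single arrays were left out. It was 46 with only the arrays compared, 4198 with array weights and 1623 after quantile normalization again, and the cause was not tested. Arrays of the same number did not deviate together (correlations 0.027, 0.013 and -0.019 for numbers 1, 2 and 3), so the numbers are not taken to pair samples. With the replicate number as a block the counts were 9032 genes in batch 1, 2593 above 2-fold, 6697 in the second pair and 290 between the pairs.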

Other observations

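The median difference was not the same for every chromosome. Chromosomes were taken from RefSeq (GRCm38.p6) by gene ID, for genes whose higher group mean in batch 1 passed 7.03. Without P19 control 2, the median MEF minus P19 difference was -0.42 over the 625 genes of chromosome 4, -0.37 over the 844 of chromosome 11 and -0.32 over the 746 of chromosome 7. It ran from -0.23 to 0.22 over the other 16 autosomes. In the pair of MEF batch 2 and P19 batch 3, which shares no array with it, the same 3 chromosomes had medians of -0.46, -0.34 and -0.32, and the others ran from -0.22 to 0.16. With all 6 arrays of batch 1 the medians of chromosomes 4, 11 and 7 were -0.21, -0.14 and -0.19, against -0.04 to 0.48 over the others. The pattern was noticed after the values were seen and no test was made.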
